A study of Mus musculus with 34 samples.

Results

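Gene expression in late-passage attached cells of the mouse embryonic stem (ES) cell line C2 was set against that in early-passage cells of the same line. The comparison was defined by the sample titles and rests on 6 of the 17 RNAs in the series, 3 per group, which were hybridised to 12 of its 34 arrays. Both groups came from 1 line of C57BL/6 blastocyst origin, so that they describe 1 isolate. Late attached C2 cells were grown in a medium named Thromb-XTX-WES, and per the labels gave high chimerism and entered the germ line. Early C2 cells were grown in DMEM with 15% fetal bovine serum, and gave low chimerism with no germline transmission. LIF, a temperature of 37 C, 5% CO2, mouse embryonic fibroblast feeders and a replating step of 1 h were shared by both. Passage, medium and chimerism therefore cannot be told apart. The second line, D4, was sampled in the same late attached and early states with 3 RNAs each, and is used below to ask whether its change differed from that of C2. A second late state of C2, named detached, is cited only for levels. The labels do not say to what the cells were attached. Whether RNAs of 1 group had separate cultures as their source is not stated either. The p-values rest on the spread among RNAs within a group, taken as shared by all 6 groups of the series, and possibly a technical one.

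ES cells are the cultured counterpart of the pluripotent cells of the blastocyst. LIF acts through STAT3 and, with transcription factors such as OCT4, NANOG and ESRRB, holds them in the naive state. Cultures can also hold cells that leave this state, among them primitive endoderm and other differentiated cells, as well as feeders carried over at harvest. In the labels the feeders are the contaminating cell type, at an estimated ES cell purity of about 90%. Lists of genes for these cell types and for the pathways named below were therefore followed.

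A pair of Affymetrix array types, MOE430A and MOE430B, was hybridised with each RNA and gave a signal intensity per probe set. Values are given as log2(signal + 16), on which 1 unit is a doubling for bright probe sets, and probe sets of different genes are not compared in level. The median signal was 614 to 817 in attached and 583 to 669 in early RNAs on MOE430A, and 803 to 989 and 879 to 924 on MOE430B. RNA 1 of the attached group stood apart. The 5th percentile of its signals was 109 on MOE430A and 177 on MOE430B, against at most 37.6 and 79.8 on any other array, so its dim probe sets read higher than those of the other RNAs. Values without it are given where it decided a call or moved a list count most. RNAs within the attached group correlated across probe sets at r = 0.866 to 0.947 on MOE430A, within the early group at 0.886 to 0.919, and between the groups at 0.845 to 0.932. On MOE430B these ranges were 0.684 to 0.791, 0.710 to 0.766 and 0.660 to 0.785. No inferred fluidics run held arrays of both groups on either array type. As a check of the cell type, Pou5f1, which encodes OCT4, was bright in both groups, at 13.47, 13.86 and 13.91 in attached RNAs, against 13.85, 13.94 and 13.35 in early RNAs.

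Of 30373 probe sets tested with limma, 5 were called at an adjusted p under 0.05, which is 0.0165% of those tested. In late attached cells 4 were higher (0.0132%) and 1 was lower (0.00329%). On MOE430A 1 of 14160 was called (0.00706%), and on MOE430B 4 of 16213 (0.0247%). At an unadjusted p under 0.05 there were 2262. The lowest adjusted p was that of Scnn1a, on chromosome 6, which encodes the alpha subunit of the epithelial sodium channel. Its probe set 1425088_at on MOE430A was at 10.07, 9.67 and 9.72 in attached RNAs, against 7.73, 7.17 and 7.44 in early RNAs, so that the groups lay about 2 units apart with no overlap. Scnn1a rose by 2.37 in attached cells (SE 0.281, limma adjusted p = 0.00945, n = 3 per group), a 5.17-fold difference. Without attached RNA 1 it was at 2.25 and no longer passed (limma adjusted p = 0.0921). The call was also lost without attached RNA 2 (adjusted p = 0.0512) or early RNA 3 (0.0504), each of the 3 at a like size.

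Zfp980, a zinc finger gene on chromosome 4, was read on MOE430B at 9.84, 9.85 and 9.85 in attached RNAs and at 8.09, 7.98 and 8.02 in early RNAs. It rose by 1.82 (SE 0.233, limma adjusted p = 0.0317), and the detached C2 RNAs, at a mean of 7.31 ± 0.12 (SD, n = 3), lay below both groups. Only attached RNAs 2 and 3 read above their array median, so Zfp980 entered the test through the group in which it was high. Its limma adjusted p was 0.0760 with no filter on dim probe sets and 0.814 with a variance trend, at the same size. Camk2n1, which encodes an inhibitor of calmodulin-dependent kinase II, rose by 1.96 at probe set 1440455_at (SE 0.282, limma adjusted p = 0.0446). That probe set was at 11.20, 11.34 and 11.28 in attached RNAs, against 9.56, 9.43 and 8.96 in early RNAs. A brighter probe set of Camk2n1 on the same array type differed by 0.02 (adjusted p = 0.997), so the 2 probe sets disagree. A probe set with no gene symbol, 1432621_at, rose by 2.98 (SE 0.446, limma adjusted p = 0.0446), with attached RNAs at 10.92, 10.35 and 11.21 and early RNAs at 8.36, 7.28 and 7.91. D630023F18Rik fell by 2.41 at probe set 1440468_at (SE 0.353, limma adjusted p = 0.0446). It was at 8.09, 7.73 and 8.57 in attached RNAs, against 10.09, 10.79 and 10.74 in early RNAs, while a brighter probe set of this gene differed by 0.08 (adjusted p = 0.994). Without attached RNA 1 none of these 4 kept its call (limma adjusted p = 0.0516 to 0.0800), at differences of like size. All 5 calls were also lost with only the C2 attached and early arrays in the fit, or with the inferred fluidics run as a block. In the fit with the run the differences were of like size with larger errors, at 2.33 (SE 0.548) for Scnn1a, 2.94 (SE 0.881) for the unnamed probe set and -2.31 (SE 0.685) for D630023F18Rik.

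**Figure D1:**
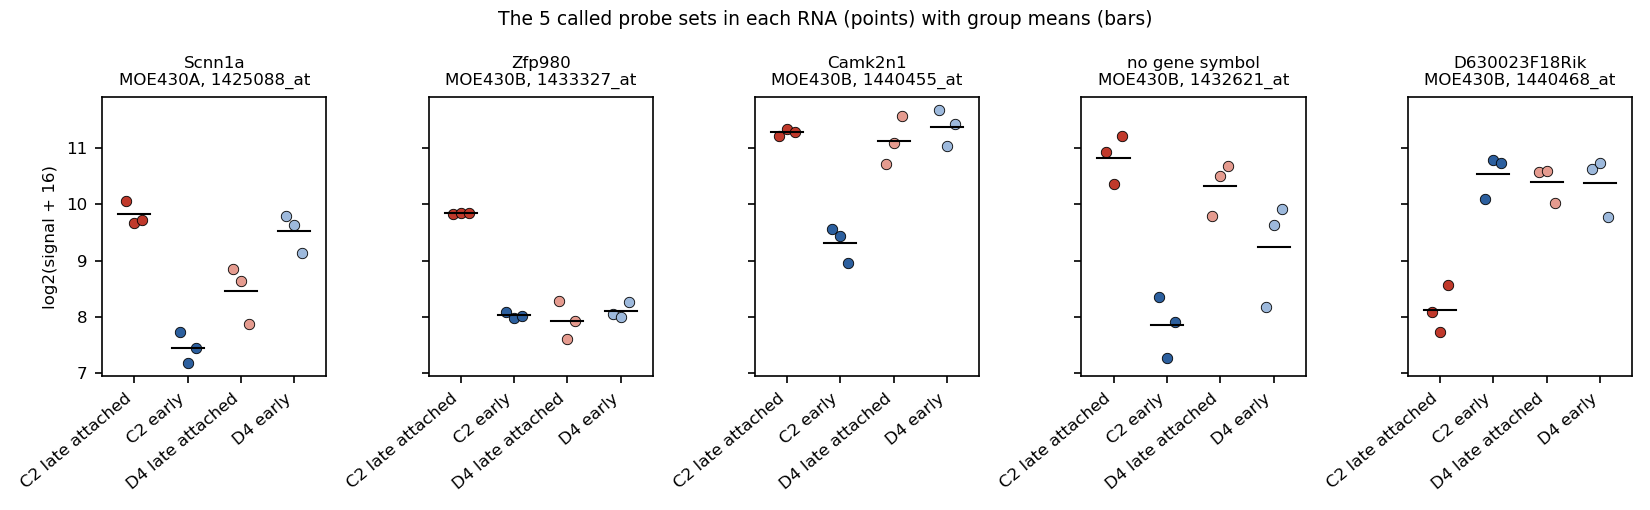
The 5 called probe sets, with log2(signal + 16) on the vertical axis for each of 3 RNAs (points) and the group mean (bar) in late attached and early cells of C2 and then of D4. In Scnn1a the attached C2 RNAs lie between 9.67 and 10.07, above the early C2 RNAs at 7.17 to 7.73, while in D4 the attached RNAs lie below the early ones.

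Since so few probe sets passed, gene groups are described by how many of their members had groups that did not overlap, meaning that every attached RNA lay on one side of every early RNA. For each of 14105 genes the brightest probe set tested was taken, from MOE430A where it had one there. Attached RNAs lay wholly above early RNAs for 880 genes (6.24%) and wholly below for 802 (5.69%). Without attached RNA 1 these shares were 13.0% and 10.2%, since only 2 attached RNAs then had to lie apart, and without early RNA 3 they were 13.6% and 11.6%. With quantile normalization they were 6.2% and 5.85%. List counts given below without 1 RNA are to be read against the higher shares without that RNA. The median difference over all genes was 0.03. Apart from Scnn1a and Zfp980 (2 genes, 0.0142%), no gene was called by its brightest probe set, so the members below are described by their values and none is said to have changed. Adjusted p-values are limma's.

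General pluripotency genes lay apart between the states about as often as all genes (6.24% above and 5.69% below). Naive genes lay wholly above more often (14.3%) and primed epiblast genes wholly below (33.3%), each on a short list. Of 19 measured general pluripotency genes none lay wholly above and 1 wholly below, with a median difference of 0.07. Without early RNA 3 there were 1 above and 5 below (against 13.6% and 11.6% of all genes), and the median turned to -0.16. Of 21 naive pluripotency genes 3 lay wholly above and 1 below, with a median of 0.23. Nanog differed by -0.01 (adjusted p = 0.995), with 12.13, 12.66 and 12.91 in attached RNAs and 12.82, 11.89 and 13.03 in early RNAs. Sox2 differed by 0.27 (0.77), Klf4 by 0.25 (0.81), Zfp42 by 0.11 (0.941) and Pou5f1 by 0.03 (0.98), and in all of them the groups overlapped. The 3 naive genes wholly above were Esrrb, an orphan nuclear receptor of the naive network, at 0.28, Tcl1, a co-activator of AKT signalling, at 0.58, and Prdm14, which represses differentiation genes, at 0.57. Esrrb was at 13.09, 13.24 and 13.31 in attached RNAs, against 13.04, 12.86 and 12.89 in early RNAs, a narrow gap of which the adjusted p was 0.656. Among the 9 primed epiblast genes measured, all differed by less than 0 and 3 lay wholly below, with a median of -0.40, which was -0.66 without early RNA 3. The lowest of them was Krt18, which is also on the keratin list.

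The LIF pathway signals from the receptor through STAT3 to targets that include its own inhibitors. Of 15 measured genes 2 lay wholly above (13.3%, against 6.24% of all genes) and none below, with a median of 0.30. Both were feedback inhibitors. There were 4 above and 2 below without attached RNA 1 (against 13.0% and 10.2% of all genes). Socs3 was at 12.36, 12.74 and 12.44 in attached RNAs, against 11.63, 11.48 and 11.81 in early RNAs, a difference of 0.88 (SE 0.26, adjusted p = 0.358). Its 2 other probe sets on MOE430A also had groups that did not overlap, at 0.60 and 0.62. Socs2 was at 12.06, 11.81 and 12.23 in attached RNAs and at 11.75, 11.30 and 11.05 in early RNAs, a difference of 0.66 (adjusted p = 0.458). Another probe set of Socs2 on MOE430A gave 0.87 with groups that did not overlap. Its probe sets on MOE430B disagreed. They gave 1.90 with overlapping groups, -0.40 with groups that did not overlap and -0.36 with groups that did. Stat3 itself overlapped between groups, at 0.38.

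In the Nodal pathway the ligand and an antagonist ran in opposite directions. Nodal, a ligand of the TGF-beta family, was at 12.04, 12.01 and 12.02 in attached RNAs, against 13.00, 13.29 and 12.33 in early RNAs, a difference of -0.86 (SE 0.23, adjusted p = 0.326). A second probe set of Nodal gave -0.31 with overlapping groups. Lefty2, which encodes a secreted Nodal antagonist, was at 12.19, 12.43 and 13.16 in attached RNAs, against 9.87, 10.05 and 10.96 in early RNAs. The groups were more than 1 unit apart, and the difference of 2.30 (SE 0.41) did not pass on MOE430B (adjusted p = 0.201). Lefty1, the other antagonist, differed by 0.04 with overlapping groups. The convertase gene Pcsk6 lay wholly below, at -0.52. These were 1 gene wholly above (5.88%) and 2 wholly below (11.8%) of 17 in the pathway, with a median of 0.00. Over all genes the shares were 6.24% and 5.69%.

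Genes of extraembryonic endoderm were among the larger differences. Of 20 measured markers of primitive, visceral and parietal endoderm, 6 lay wholly above (against 6.24% of all genes) and none below, with a median of 0.25. With quantile normalization 4 did so, and without attached RNA 1 there were 7 (against 13.0% of all genes). Srgn, which encodes serglycin, a proteoglycan of secretory granules that is also abundant in blood cells, was at 10.82, 11.23 and 11.34 in attached RNAs, against 8.08, 9.19 and 7.75 in early RNAs. All attached RNAs lay over 1 unit above the highest early RNA, and the difference was 2.79 (SE 0.54, adjusted p = 0.192), or 6.93-fold. Cubn, which encodes the endocytic receptor cubilin of visceral endoderm, was at 8.88, 10.46 and 10.58 in attached RNAs and at 8.46, 8.31 and 7.99 in early RNAs. Its difference of 1.72 (SE 0.50, adjusted p = 0.351) was 2.27 without attached RNA 1, the lowest of its group, and under quantile normalization its groups overlapped. A dimmer probe set of Cubn gave 3.59 (SE 0.553, adjusted p = 0.0933), the groups again not overlapping.

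The other members wholly above were Dab2, an adaptor protein of cubilin uptake, at 1.12 (SE 0.30, adjusted p = 0.314), Gata4, an endoderm transcription factor, at 0.90 (0.348), Lama1, a basement membrane laminin, at 0.87 (0.348), and Sox7 at 0.74 (0.442). Dab2 was at 11.02, 11.10 and 11.19 in attached RNAs, against 9.65, 10.54 and 9.75 in early RNAs, and a dimmer probe set overlapped at 0.56. Gata4 was at 10.26, 10.49 and 10.06 in attached RNAs and at 8.74, 9.68 and 9.69 in early RNAs. The endoderm factors Gata6 at 0.30 and Foxa2 at 0.46 overlapped between groups, although a dimmer probe set of Gata6 did not, at 1.16. A probe set of Gata6 on MOE430B gave -0.08 with overlapping groups. The summed signal of the 20 markers was 28110 to 39327 in attached RNAs and 31407 to 40210 in early RNAs, so the list as a whole did not separate. Of 6 measured genes of the cubilin complex and its uptake, Cubn and Dab2 lay wholly above (33.3%, against 6.24% of all genes). Amn, the membrane anchor of the complex, overlapped at 0.48. Markers of macrophages and blood differed in the same direction as Srgn in C2, with a median of 0.57, or 0.24 without attached RNA 1. This did not hold in D4, where their median was -0.66 while Srgn was again higher in attached RNAs. In C2 their 7 measured members had a summed signal of 7807 to 9970 in attached RNAs, against 5908 to 7700 in early RNAs, with no overlap. Only Cd14, a lipopolysaccharide co-receptor, lay wholly above as a single gene, at 1.37 (adjusted p = 0.401), and the list's part in the Srgn result was not tested. In bulk RNA, fewer cells of a type and less RNA per cell cannot be told apart.

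A pair of hormone genes also lay wholly above. Trh, which encodes thyrotropin-releasing hormone, was at 12.08, 12.13 and 11.87 in attached RNAs, against 10.21, 10.43 and 10.84 in early RNAs, a difference of 1.53 (SE 0.37, adjusted p = 0.274). Npy, which encodes neuropeptide Y, was at 10.30, 10.56 and 9.95 in attached RNAs, against 7.93, 7.78 and 8.17 in early RNAs, a difference of 2.31 (SE 0.50, adjusted p = 0.242). In detached C2 RNAs Trh averaged 12.51 and Npy 8.12, so that Npy was close to the early RNAs there, with both late states set against the same early RNAs.

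**Figure D2:**
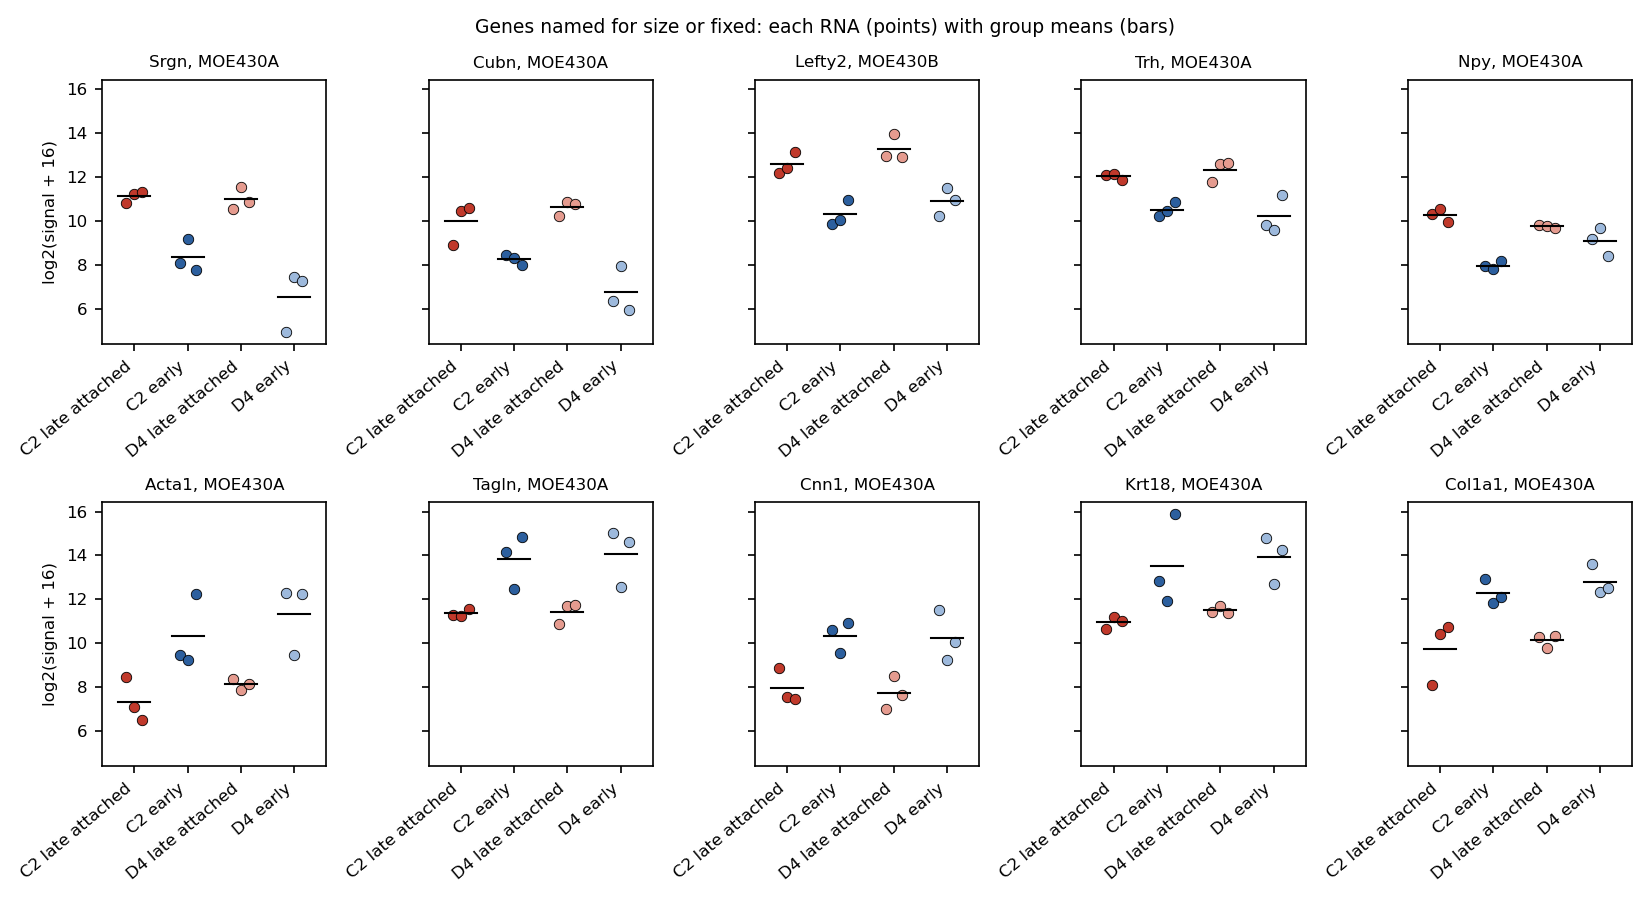
Log2(signal + 16) of 10 genes in each RNA (points) with the group mean (bar), for late attached and early cells of C2 and then of D4. The upper row holds genes higher in attached C2 cells, such as Srgn with attached RNAs at 10.82 to 11.34 and early RNAs at 7.75 to 9.19, and the lower row holds genes lower in them, such as Krt18 at 10.65 to 11.19 and 11.92 to 15.88.

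Of 18 measured contractile genes, 16 had differences below 0 in attached cells. Many are targets of serum response factor (SRF), which binds a motif named the CArG box and is switched on by serum and by actin assembly. Of them 8 lay wholly below (44.4%, against 5.69% of all genes) and none above, with a median of -0.92. The count was again 8 without attached RNA 1 (against 10.2% of all genes), with a median of -1.01. It was also 8 without early RNA 3 (against 11.6%), with a median of -0.78. Acta1, skeletal muscle actin, was at 8.47, 7.07 and 6.47 in attached RNAs, against 9.45, 9.23 and 12.24 in early RNAs, a difference of -2.97 (SE 1.06, adjusted p = 0.401) with early RNA 3 far above the rest. Without that RNA it was -2.003. Tagln, the actin cross-linker transgelin, was at 11.26, 11.25 and 11.57 in attached RNAs, against 14.14, 12.47 and 14.83 in early RNAs, a difference of -2.45 (SE 0.66, adjusted p = 0.326). The attached RNAs lay close together while the early RNAs spread over more than 2 units.

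Cnn1, calponin, was at 8.85, 7.52 and 7.45 in attached RNAs and at 10.60, 9.53 and 10.90 in early RNAs, a difference of -2.40 (SE 0.63, adjusted p = 0.314). Tpm1, a tropomyosin, differed by -1.98 (SE 0.60, adjusted p = 0.378), Acta2, smooth muscle actin, by -1.75 (0.373), Myl9, a myosin light chain, by -1.43 (0.425), Cnn2 by -0.86 (0.497) and Flna, which encodes filamin, by -0.78 (0.39). The mean log2 signal of the 18 genes was 11.05, 11.07 and 11.19 in attached RNAs, against 12.37, 11.52 and 12.87 in early RNAs. Srf itself at 0.29 and Vcl, vinculin, at -0.62 overlapped between groups. Ppp1r14a, which encodes a smooth muscle inhibitor of myosin phosphatase and is not on the list, was at 6.74, 7.18 and 5.74 in attached RNAs, against 9.57, 9.04 and 9.82 in early RNAs. Its difference of -2.92 (SE 0.54, adjusted p = 0.174) was the lowest after that of Acta1 among genes whose groups did not overlap and whose brighter group reached 9. Of 18 immediate early genes, another serum-induced set, 1 lay wholly above (5.56%, against 6.24% of all genes) and none below, with Egr1 at 0.43.

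The 250 bases before the start of transcription were searched for the CArG box, which reads the same on both strands, in RefSeq promoter windows of GRCm38.p6. Of the 18 contractile genes, 16 had a window, and 5 held at least 1 box (31.2% of genes, against 1.62% of the 27025 genes with a window). They are printed because the list is defined partly by this motif and its members with a box did not all behave alike. Boxes are in capitals. Acta1 (chr8:123894776-123895025, minus strand), Cnn2 (chr10:79988350-79988599, plus strand) and Myl9 (chr2:156775214-156775463, plus strand) lay wholly below in attached cells, with boxes that begin 73, 56 and 161 bases before the start. Vcl (chr14:20929148-20929397, plus strand), with a box at 227, and Srf (chr17:46556163-46556412, minus strand), with boxes at 82 and 62, overlapped between groups. A match is a description of these letters and shows no binding.
Acta1: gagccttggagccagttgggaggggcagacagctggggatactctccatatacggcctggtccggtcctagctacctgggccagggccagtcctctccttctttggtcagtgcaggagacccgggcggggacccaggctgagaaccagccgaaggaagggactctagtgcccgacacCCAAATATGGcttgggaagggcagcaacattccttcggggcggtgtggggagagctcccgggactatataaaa
Cnn2: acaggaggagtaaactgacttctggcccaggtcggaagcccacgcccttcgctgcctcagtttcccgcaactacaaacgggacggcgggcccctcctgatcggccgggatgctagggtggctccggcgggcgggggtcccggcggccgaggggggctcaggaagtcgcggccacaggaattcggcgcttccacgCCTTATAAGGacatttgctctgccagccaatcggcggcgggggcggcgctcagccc
Myl9: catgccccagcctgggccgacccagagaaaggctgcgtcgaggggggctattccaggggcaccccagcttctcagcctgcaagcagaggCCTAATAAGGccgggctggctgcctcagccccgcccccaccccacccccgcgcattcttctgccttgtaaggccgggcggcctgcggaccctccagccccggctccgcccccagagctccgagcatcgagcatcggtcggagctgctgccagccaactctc
Vcl: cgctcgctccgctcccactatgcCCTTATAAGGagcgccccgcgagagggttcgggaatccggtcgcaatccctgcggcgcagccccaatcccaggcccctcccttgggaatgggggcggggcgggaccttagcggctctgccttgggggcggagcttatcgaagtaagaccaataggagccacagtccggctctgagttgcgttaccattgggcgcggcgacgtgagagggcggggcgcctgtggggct
Srf: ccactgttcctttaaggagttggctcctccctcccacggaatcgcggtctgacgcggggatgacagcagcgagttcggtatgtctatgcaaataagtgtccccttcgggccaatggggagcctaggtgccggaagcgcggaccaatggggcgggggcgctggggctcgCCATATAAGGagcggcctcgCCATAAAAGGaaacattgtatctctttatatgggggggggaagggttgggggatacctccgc

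Simple epithelial keratins followed the contractile genes, with early RNA 3 again highest. Krt18 was at 10.65, 11.19 and 10.99 in attached RNAs, against 12.82, 11.92 and 15.88 in early RNAs, a difference of -2.59 (SE 0.75, adjusted p = 0.351). Krt8, its partner in intermediate filaments, was at 11.26, 11.21 and 10.73 in attached RNAs and at 12.74, 11.76 and 15.68 in early RNAs, a difference of -2.33 (SE 0.77, adjusted p = 0.392). Without early RNA 3 the differences were -1.42 for Krt18 and -1.18 for Krt8. The 2 dimmer probe sets of Krt8 gave -3.47 and -2.95 over all 6 RNAs. Of 5 keratins these 2 lay wholly below and none above, with a median of -2.21, which was -0.91 without early RNA 3, and Krt7 at -1.61 and Krt19 at -2.21 overlapped. With the fluidics run as a block Krt19 turned to 0.72. The trophoblast list, which shares these keratins, had a summed signal of 8616 to 11180 in attached RNAs and 11606 to 125436 in early RNAs. Of its 9 measured members 5 had differences below 0 and 4 above, with a median of -1.24. Its members outside the keratins overlapped, among them the one at that median, Tfap2c at 0.29 and Hand1 at 0.30.

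Feeder transcripts differed in the same direction as the contractile and collagen genes. The feeder list shares members with the collagen, matrix and adhesion lists, among them Col1a1, Col5a1, Col5a2, Timp1 and Lgals1. A like direction in those lists is therefore partly built in. Of 22 measured feeder fibroblast markers, 9 lay wholly below (40.9%, against 5.69%) and 1 above, with a median of -0.49, which was -0.29 without attached RNA 1. Their summed signal was 70157 to 95965 in attached RNAs, against 105736 to 161239 in early RNAs, with no overlap. The mean log2 signal of the list was 11.03, 11.22 and 11.31 in attached RNAs and 12.04, 11.32 and 11.66 in early RNAs. Thy1, a fibroblast surface antigen, differed by -0.27 and Vim, vimentin, by -0.77, each with groups that did not overlap. With the fluidics run as a block Thy1 turned to 0.23. The part of feeder RNA in the lower contractile, keratin, collagen, matrix, adhesion and growth factor genes was not tested, since no RNA of feeders alone was measured.

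Among collagens, Col1a1, a chain of type I collagen and a marker of the feeder list, was at 8.10, 10.39 and 10.73 in attached RNAs, against 12.91, 11.84 and 12.12 in early RNAs. Its difference was -2.55 (SE 0.66, adjusted p = 0.296), and -1.73 without attached RNA 1, the lowest. A dimmer probe set gave -1.18 with overlapping groups. Its partner chain Col1a2 was at 11.64, 11.84 and 11.94 in attached RNAs, against 13.54, 11.51 and 12.43 in early RNAs, and overlapped at -0.69. Col5a2 differed by -1.005 (adjusted p = 0.425) and Col5a1 by -0.96 (0.499). These 3 of 11 collagens lay wholly below (27.3%, against 5.69% of all genes), with none above and a median of -0.26. With the fluidics run as a block Col5a1 turned to 0.014 and Col1a2 to 0.17.

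Proteases and their inhibitors differed among themselves. Of 15 matrix remodelling genes 4 lay wholly below (26.7%, against 5.69% of all genes). Among them were the membrane protease Mmp14 at -0.71 and the inhibitors Timp1 at -0.65 and Timp2 at -0.68. Other probe sets of Mmp14 gave -0.80 and 0.08, and those of Timp2 gave 0.13, -0.13, -0.86 and -0.54, all with overlapping groups. Mmp3, stromelysin, lay wholly above, at 10.89, 10.39 and 10.59 in attached RNAs, against 8.61, 7.79 and 9.62 in early RNAs, a difference of 1.95 (SE 0.48, adjusted p = 0.274). Dcn, which encodes the fibroblast proteoglycan decorin, was the 1 feeder marker wholly above, at 10.18, 10.59 and 10.03 in attached RNAs and at 8.82, 9.34 and 7.48 in early RNAs. Its difference was 1.72 (SE 0.90, adjusted p = 0.549), against a list median below 0.

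Of 24 adhesion genes 6 lay wholly below (25%, against 5.69% of all genes) and 1 above, with a median of -0.09. They included the integrin chains Itga3 at -1.05 (adjusted p = 0.392) and Itgb1 at -0.70 (0.549), which form a laminin receptor, and the galectins Lgals1 at -1.16 (0.39) and Lgals3 at -1.18 (0.447). Itga3 was at 10.64, 10.56 and 10.61 in attached RNAs, against 11.17, 11.23 and 12.56 in early RNAs. Lgals1 was at 13.19, 13.77 and 13.72 in attached RNAs and at 14.75, 14.05 and 15.36 in early RNAs. In these 2 genes early RNA 3 was again the highest. Among 11 basement membrane genes, Lama1 lay wholly above while Lama5, another laminin alpha chain, lay wholly below at -0.77 (adjusted p = 0.392).

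**Figure D3:**
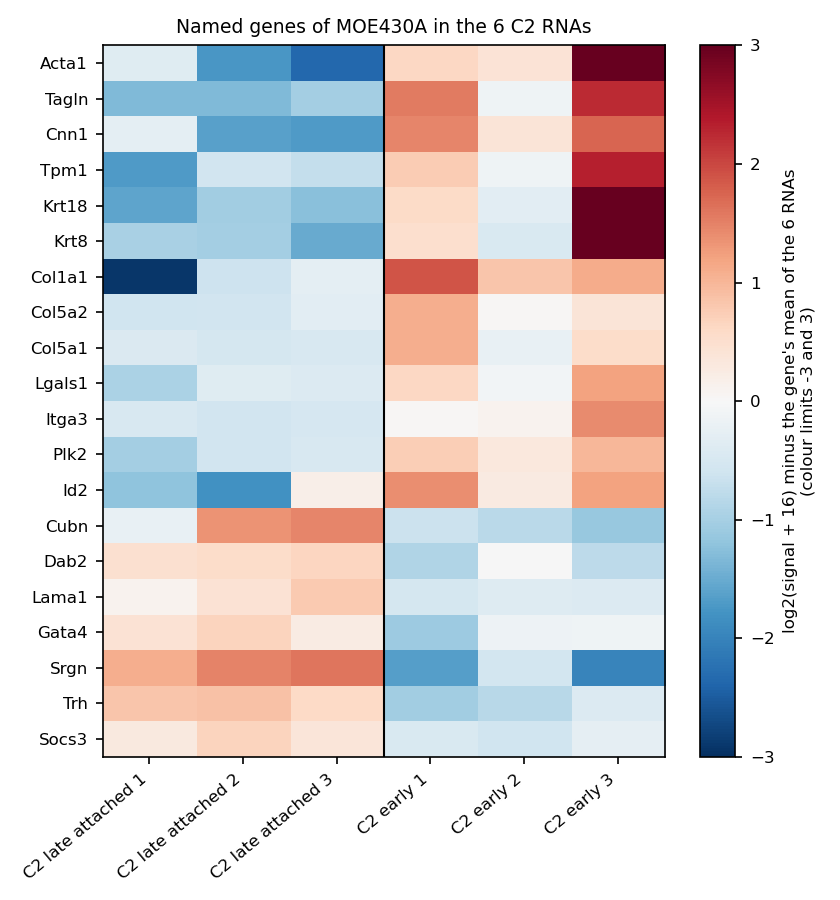
Each row is a gene of MOE430A and each column 1 C2 RNA, with the 3 late attached RNAs left of the 3 early RNAs, and the colour gives log2(signal + 16) minus the mean of the gene over the 6 RNAs. Acta1, Tagln, Cnn1, Tpm1 and both keratins are highest (darkest red) in early RNA 3, where Krt18 stood at 15.88, and Col1a1 is lowest in attached RNA 1, at 8.10.

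Of 22 measured genes of the p53 response, 5 lay wholly below (22.7%, against 5.69%) and none above, with a median of -0.22. Without early RNA 3 these were 8 and 2 (against 11.6% and 13.6% of all genes). Plk2, a stress-induced kinase, was at 10.53, 10.99 and 11.07 in attached RNAs, against 12.31, 11.87 and 12.56 in early RNAs, a difference of -1.38 (SE 0.25, adjusted p = 0.174). A probe set of Plk2 on MOE430B gave -0.09, and another of Trp53inp1 gave 0.17, both with overlapping groups. Perp, a junction protein, was at -0.81 (0.457), Trp53inp1 at -0.63 (0.442) and Zmat3 at -0.55 (0.392). The central targets Cdkn1a, which encodes p21, at -0.01, and Mdm2, which encodes the p53 ligase, at -0.50, overlapped between groups.

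Growth factor and signalling genes held single members of this kind. Id2, an inhibitor of helix-loop-helix factors, was at 8.14, 7.52 and 9.50 in attached RNAs, against 10.72, 9.60 and 10.56 in early RNAs, and a dimmer probe set overlapped at -0.28. It differed by -1.91 (SE 0.55, adjusted p = 0.351) and was the 1 gene wholly below of 18 in the BMP and TGF-beta response. Of 14 genes of IGF binding and growth factors 4 lay wholly below (28.6%, against 5.69% of all genes) and 1 above. Igfbp3, an IGF carrier, differed by -1.97 (0.392), Igf2, the fetal growth factor, by -0.81 (0.679) and its scavenger receptor Igf2r by -0.48 (0.549), which turned to 0.014 with the fluidics run as a block. Igf2 was at 10.55, 10.61 and 10.47 in attached RNAs, against 11.38, 10.91 and 11.76 in early RNAs. It is imprinted, as are Igf2r and Cdkn1c, which lay wholly below at -0.74. These were 3 of 21 imprinted genes wholly below (14.3%, against 5.69% of all genes). Dcn, described above, was the 1 wholly above (4.76%, against 6.24% of all genes), and Mest at -0.06 overlapped. Ccn2, a matricellular factor and YAP target, was at 12.80, 12.51 and 12.76 in attached RNAs and at 13.94, 13.58 and 12.86 in early RNAs. It differed by -0.77 (SE 0.26, adjusted p = 0.392) and was the 1 gene wholly below of 14 YAP and TEAD targets, of which 13 had differences below 0, with a median of -0.43. Without attached RNA 1 there were 4 wholly below (against 10.2% of all genes), and with quantile normalization none.

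Metabolic and stress lists held members on both sides, to be read against 6.24% of all genes wholly above and 5.69% wholly below. Of 23 genes of the amino acid and ATF4 response, which senses amino acid shortage, 4 lay wholly above (17.4%) and 1 below (4.35%). Their median was 0.21. Without attached RNA 1 there were 9 and 1 (against 13.0% and 10.2% of all genes), with a median of 0.40. Slc7a1, a cationic amino acid transporter, differed by 1.68 (SE 0.47, adjusted p = 0.342) on MOE430A, although 2 probe sets on MOE430B gave 0.11 and 0.09. Chac1, a glutathione-degrading target of ATF4, was at 0.76 (0.499). Of 20 oxidative stress genes 2 lay wholly above and 1 below. Gpx2, a glutathione peroxidase, was at 11.33, 11.51 and 11.48 in attached RNAs, against 10.25, 11.03 and 8.17 in early RNAs, a difference of 1.62 (SE 0.54, adjusted p = 0.392) with early RNA 3 the lowest. It was 0.80 without that RNA. Of 19 cholesterol synthesis genes Nsdhl, a sterol dehydrogenase, lay wholly above at 0.80 (0.268) and Fdft1, squalene synthase, wholly below at -0.33. Fatty acid synthesis had 1 gene above and none below of 14, glycolysis and hypoxia 1 and 2 of 22, and the cell cycle 3 and 4 of 23. Glycolysis and hypoxia had 5 above without attached RNA 1 (against 13.0% of all genes), and without early RNA 3 the cell cycle had 10 below (against 11.6%).

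The remaining lists follow by their counts, to be read against 6.24% of all genes wholly above and 5.69% wholly below. Chromatin and DNA methylation genes had 1 above of 20, Tet1, a methylcytosine oxidase, at 0.51 (adjusted p = 0.576). Germ line genes had 1 above and 1 below of 11. The gene below was Stra8, which is induced at entry into meiosis, at 8.48, 8.93 and 8.69 in attached RNAs, against 10.37, 10.15 and 9.61 in early RNAs, a difference of -1.34 (SE 0.52, adjusted p = 0.438). FGF and ERK feedback had 2 above and none below of 14, with Etv4, a target of ERK, at 0.70. Without attached RNA 1 there were 5 above (against 13.0% of all genes). The Wnt response had 1 and 1 of 15, interferon and antigen presentation 2 and none of 13, cytokines 1 and none of 6, and oncofetal growth 1 and 1 of 6. Oncofetal growth had 3 and 3 without attached RNA 1 (against 13.0% and 10.2% of all genes). In the interferon list H2-K1, a class I antigen-presenting molecule, was at 1.15, but another of its probe sets gave -1.29 and so the probe sets disagree. No gene of 7 mesoderm and 5 neuroectoderm markers lay apart, and 1 above and 1 below of 6 endothelial markers did.

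**Figure D4:**
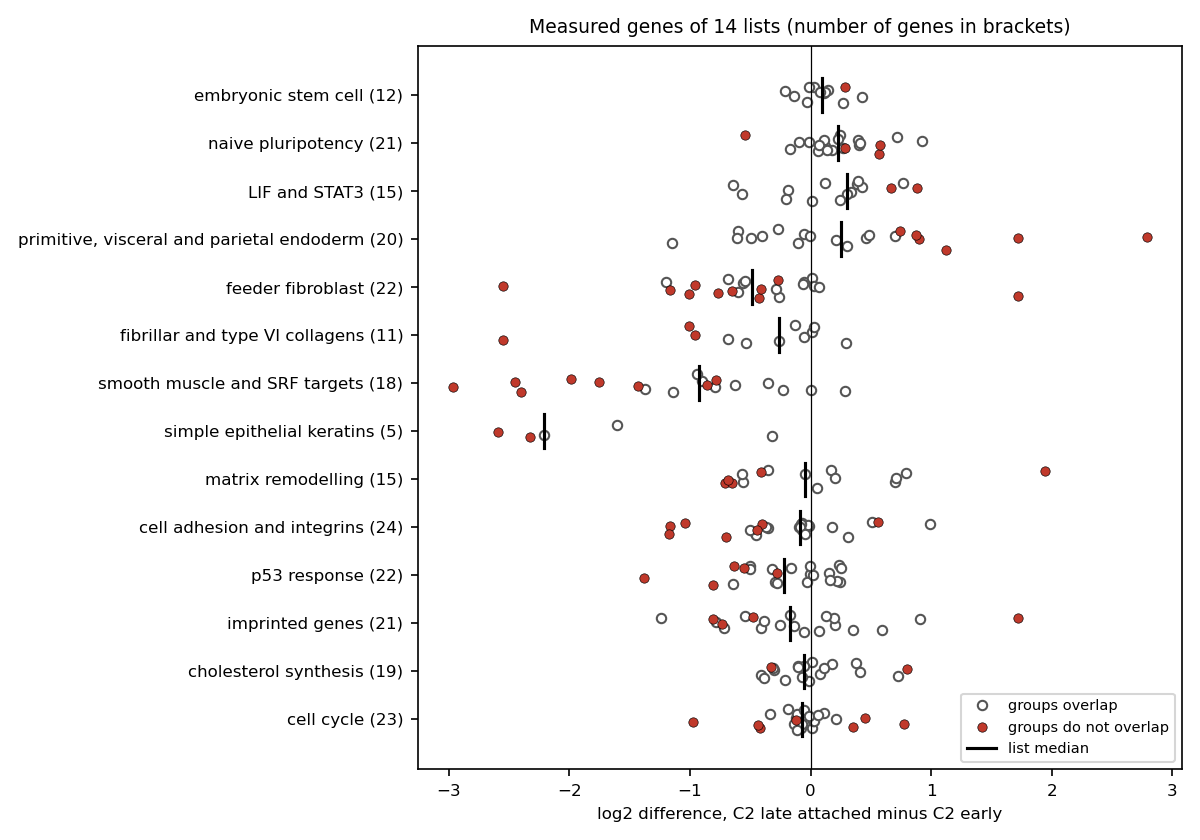
Log2 difference, late attached minus early C2, of each measured gene (point) in 14 lists, filled where the groups did not overlap, with the list median as a bar. The contractile list has its median at -0.92 and the keratins at -2.21, while the embryonic stem cell list has it at 0.09 and naive pluripotency at 0.23.

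Beyond the lists, the genes with the most extreme differences among those whose groups did not overlap were mostly read on MOE430B, where replicates agreed less. In addition to those above, the highest were Gm4924 at 3.08, Dpp10, a potassium channel partner, at 2.93, Tnni3k, a cardiac kinase, at 2.81, Gm34006 at 2.43, Zfp184, a zinc finger gene, at 2.39, and Ssbp2, a cofactor of LIM-domain transcription complexes, at 2.33. A second probe set of Tnni3k gave -0.70 with overlapping groups. Dpp10 was at 10.30, 9.55 and 9.91 in attached RNAs, against 5.75, 9.14 and 6.10 in early RNAs, and its adjusted p was 0.765. Ssbp2, on MOE430A, was at 10.03, 9.08 and 9.64 in attached RNAs and at 6.87, 7.20 and 7.68 in early RNAs, a difference with an adjusted p of 0.132. The lowest included Spink10 at -2.73, Rnf152, a ubiquitin ligase, at -2.70, and Wdr44 at -2.69. Wdr44 was at 8.61, 7.78 and 7.08 in attached RNAs, against 10.52, 10.78 and 10.24 in early RNAs, and it did not pass (adjusted p = 0.206).

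The late attached minus early difference was then compared between C2 and D4, each against its own early RNAs. The difference of the 2 changes was called by limma for 1 of 30373 probe sets (0.00329%), that of Scnn1a. In D4 Scnn1a was at 8.84, 8.63 and 7.88 in attached RNAs, against 9.79, 9.64 and 9.13 in early RNAs, and so ran the other way, by -1.07 (adjusted p = 0.197 in D4 alone). The change in C2 minus that in D4 was 3.44 (SE 0.398, limma adjusted p = 0.00699), and with a variance trend in the fit the call was lost at the same size (adjusted p = 0.0551). The early C2 RNAs lay below the RNAs of the other 3 groups. Zfp980 differed by -0.17 in D4, and its difference of changes, 1.99, did not pass (adjusted p = 0.128). For Camk2n1 and D630023F18Rik the difference of changes was 2.21 (0.201) and -2.43 (0.443) at the called probe sets.

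Of the 1682 genes whose C2 groups did not overlap, 976 had the same sign in D4 (58.0%), against 7230 of all 14105 genes (51.3%). For several larger differences the values of both lines are set side by side. Tagln was at -2.45 in C2 and -2.64 in D4 (difference of changes 0.19, SE 0.93), Krt18 at -2.59 and -2.40 (-0.19, SE 1.06), Col1a1 at -2.55 and -2.68, Plk2 at -1.38 and -1.24, Lefty2 at 2.30 and 2.38, and Socs3 at 0.88 and 1.38. In D4 13 of 18 contractile genes lay wholly below, against 8 in C2, where the background shares were 8.63% and 5.69%. Srgn was at 2.79 in C2 and 4.44 in D4, and Cubn at 1.72 and 3.88, but for neither did the difference of changes pass (-1.64 with adjusted p = 0.542, and -2.15 with 0.477). Early D4 RNAs had Srgn at 4.94, 7.46 and 7.24, below the early C2 RNAs.

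Other genes differed in C2 with little counterpart in D4, again without a call of the difference of changes. Nodal was at -0.86 in C2 and -0.07 in D4 (difference -0.79, adjusted p = 0.509). Slc7a1 was at 1.68 and -0.82 (2.504, adjusted p = 0.446), Ssbp2 at 2.33 and 0.33 (2.01, adjusted p = 0.446), and Wdr44 at -2.69 and 0.45 (-3.14, adjusted p = 0.528). The RNA of attached D4 replicate 3 had a 3' to 5' ratio of Actb of 1.84 on MOE430A, against 0.887 to 1.17 in the 6 C2 RNAs, so its RNA quality differed.

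**Figure D5:**
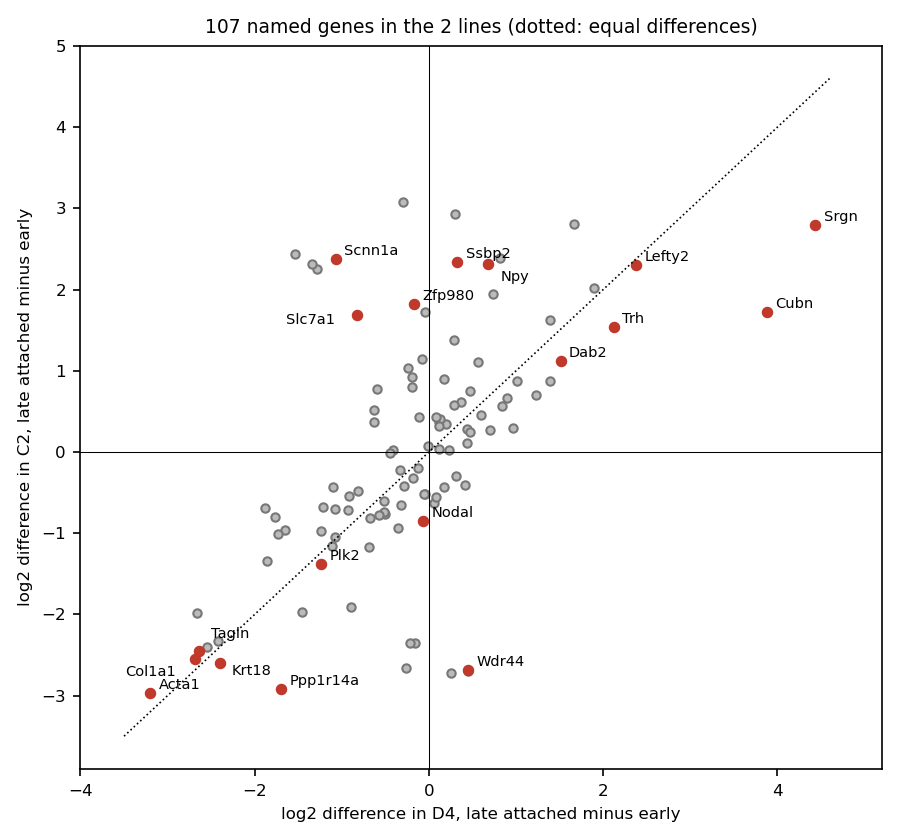
Log2 difference of late attached minus early cells in C2 (vertical axis) against that in D4 (horizontal axis) for 107 named genes, with equal differences dotted. Tagln, Krt18, Col1a1, Lefty2 and Trh lie near the dotted line, while Scnn1a, at 2.37 in C2 and -1.07 in D4, lies far from it.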

How the data were processed

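The deposited signal intensities, 1 per probe set and array, came from MAS5 per the submitters' processing notes, which scales each array by itself. No MAS5 version or detection call was used here, so a dim value cannot be told from background. The file headers gave chip lots. Fluidics runs were inferred from the station, day and hybridisation time in those headers.

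From these values log2(signal + 16) was taken, which understates changes of dim probe sets. Probe sets above the array median on at least 2 of 17 arrays entered a limma 3.58.1 fit (R 4.3.3), run per array type on all 6 groups with 1 shared spread. The Benjamini-Hochberg adjustment was made per array type, at a threshold of 0.05. The small number of arrays limits the precision. The code was tested on simulated data.

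Gene symbols, single for 20393 of 22690 probe sets on MOE430A and 14674 of 22575 on MOE430B, were those of the platform annotation, brought up to date from the GRCm38.p6 gene table.

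The comparison, lists and named genes were chosen with earlier results of these data known. Genes were named if called, if among the 12 highest or 12 lowest non-overlapping differences with a brighter group of at least 9, if among the 4 largest of a list, or from a fixed set, of which T and H19 were not tested. Other list members, dimmer probe sets and the promoters were chosen after their values were seen. Alternatives changed the offset, filter, scaling, weights, variance trend, blocks and RNAs.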

Additional observations from a re-analysis of the deposited data

Results flagged for a closer look

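The difference between the lines in Scnn1a stood out because it was the 1 probe set for which the late attached minus early change differed between C2 and D4 by the test of that difference itself. The change in C2 minus that in D4 was 3.44 log2 units (SE 0.398, limma adjusted p = 0.00699, n = 3 RNAs per group). With a variance trend it was again 3.44 and did not pass (adjusted p = 0.0551). It was higher in 3 of 3 attached RNAs in C2 and lower in 3 of 3 in D4. On MOE430A no fluidics run held attached and early RNAs of C2 together, and a fit with the run as a block gave no value for this difference.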

How the results depend on the processing

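The C2 calls depended on the processing. The count of 5 was 1 with no filter on dim probe sets, 2 with a 75th percentile filter, 3 with quantile normalization, 23 with array weights (11 higher, 12 lower) and 1 with the replicate block, although equal numbers did not mark paired RNAs (their deviations correlated at -0.116 to 0.008). It was 0 with only the arrays compared (1688 at an unadjusted p under 0.05 by limma) and 0 with the fluidics run as a block (1584). Leaving out 1 C2 RNA gave 0 to 8 calls. They were 1 without attached RNA 1, 0 without attached RNA 2 or early RNA 3 (2235 and 2398 at an unadjusted p under 0.05), and 8 without early RNA 1. Without D4 attached RNA 3, chosen after seeing the data, there were 3. An offset of 1 gave 5 and of 64 gave 7, with all 5 among them. A variance trend gave 5, of which 2 were among the original 5. The chip lot as a block applied to MOE430B, where early RNA 2 was on another lot, and gave 4 in all, with none of the original MOE430B calls (adjusted p = 0.0684 to 0.146). The C2 minus D4 count of 1 was 0 with a variance trend (2402 at an unadjusted p under 0.05), and was 1 with the replicate block. With the 75th percentile filter it was 1 other probe set, which was lower, and with the fluidics run as a block it was 0 on MOE430B (879 at an unadjusted p under 0.05) and could not be estimated on MOE430A.

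Some genes changed sign, among them Krt19, Col5a1, Col1a2, Igf2r and Thy1, which had differences of -0.27 or lower. With the fluidics run as a block the turned values were Cdkn1a at 0.59, Col1a2 at 0.17, Col5a1 at 0.014, Igf2r at 0.014, Krt19 at 0.72, Lefty1 at -0.63, Nanog at 0.10, Pou5f1 at -0.23, Thy1 at 0.23, Zfp42 at -0.24 and the brighter probe set of Camk2n1 at -0.17. That probe set gave -0.029 with the chip lot as a block. With array weights Cdkn1a was at 0.0088, Nanog at 0.018, Zfp42 at -0.011 and the brighter probe set of D630023F18Rik at -0.12, and with quantile normalization Cdkn1a was at 0.079 and Nanog at 0.066. Without single RNAs, Cdkn1a ranged over -0.11 to 0.11, Lefty1 over -0.17 to 0.35, Nanog over -0.36 to 0.21, Pou5f1 over -0.15 to 0.17, Zfp42 over -0.19 to 0.40, Camk2n1 over -0.031 to 0.13 and D630023F18Rik over -0.20 to 0.27. The cause was not tested. Of the list counts in either direction, 27 of 78 moved by over 1.5 times without attached RNA 1, 31 without early RNA 3, and 13 of 78 with quantile normalization. Leaving out 1 RNA makes a gap between groups easier for every gene. The shares over all genes rose from 6.24% and 5.69% to 13.0% and 10.2% without attached RNA 1. They were 13.6% and 11.6% without early RNA 3, so the first 2 counts do not show that the lists depend on those RNAs.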
